A study of Arabidopsis thaliana with 8 samples.

Results

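The comparison described here sets whole Arabidopsis thaliana seedlings at the end of 30 h at 37 °C against unheated seedlings, over all loci of the expression table. Its members were the 4 libraries that the labels call CTRL and LHS, 2 in each group, out of 8 libraries in the series. CTRL was the control group, for which no treatment is named, and LHS was collected at the end of the heat. The other 4 libraries came from seedlings returned to 22 °C for 12 h (LHSR12) or 84 h (LHSR84) after the same heat. All groups are wild type of the Columbia ecotype, and the series gives an age of 7 days without saying whether that is at the start of the heat or at harvest. Total RNA was made into strand-specific libraries.

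Such a temperature lies well above the range in which Arabidopsis grows. As background, heat unfolds proteins and lowers the efficiency of photosynthesis, and heat shock transcription factors bind short repeated elements in promoters and drive chaperone genes. Cells then have to rebuild or remove damaged proteins, which draws on ribosomes and on the proteasome, while growth, cell division and much of the metabolism that supports them compete for the same resources. Heat shock proteins, copies of the retrotransposon ONSEN and light-harvesting genes are left aside here as groups, and the functional groups around them are described. Counts and shares over all gene loci or all element loci, and promoter sets drawn from them, still include these loci.

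Values are scaled reads, that is, read counts divided by 1 factor for each library and not by gene length, so levels are compared between libraries and not between genes. The 2 CTRL libraries held 18.9 M and 22.2 M reads on gene loci and the 2 LHS libraries 25.4 M and 26.6 M (M for 1e6). Fold changes are differences of log2(scaled reads + 1), LHS minus CTRL, and understate the change of low genes. A gene is said to have risen, fallen or been called where its adjusted p was below 0.05 in limma, with Benjamini-Hochberg adjustment over all 27638 tested loci. Nothing in the labels states that the 2 libraries of a group were grown separately, and the p-values therefore measure the spread between these samples, which may be technical. They do not give the time of day at harvest, so heat, time of day and age cannot be told apart. Genes were named by a rule on size and call, and a further 53 (paralogues, regulators and members that were not called) were picked once their values had been seen.

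The CTRL libraries differed from each other in some groups of genes. Among loci with a mean of at least 10, 6.74% were over 2-fold apart between the CTRL libraries and 4.81% between the LHS libraries. The asparagine synthetase gene ASN1, a marker of darkness and sugar starvation, had 2868 and 198 scaled reads in CTRL replicates 1 and 2. Summed levels of 10 seed storage and late embryogenesis genes were 946 and 3230 scaled reads in CTRL and 835 and 85.2 in LHS. Values that rest on these genes are given with each library left out.

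Of 24624 gene loci tested, 34.8% (8569) rose at the end of heat and 33.2% (8179) fell, so that 68.0% were called in either direction. At least 2-fold differences were among the called in 45.6% of tested gene loci (5374 higher, 5848 lower) and at least 8-fold differences in 11.1% (1200 higher, 1534 lower). CTRL and LHS libraries did not overlap in 16745 of 16748 called gene loci. A lack of overlap therefore does not set a called gene apart. The median log2 fold change of all tested gene loci was 0.03. Since most genes were called, each list below is to be read by the share of its members that moved one way, set against those shares and that median.

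Outside the heat shock proteins, the largest rises were in genes of very different functions. APX2, a cytosolic ascorbate peroxidase that removes hydrogen peroxide, had 4.06 and 8.58 in CTRL and 11074 and 14725 in LHS (log2 fold change 10.84, SE 0.39, adjusted p = 3.22e-07, limma). CUL2, named a cullin after the scaffold proteins of ubiquitin ligases, had 6.77 and 9.65 in CTRL and 7253 and 7961 in LHS (log2 fold change 9.71, SE 0.50, adjusted p = 1.23e-06). HA9, a plasma membrane proton pump, had 1.35 and 0 in CTRL and 534 and 523 in LHS, and its single read in CTRL gave a ratio of 780 (95% counting interval 140 to 30852). In each of these genes both LHS libraries stood more than an order of magnitude above both CTRL libraries.

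FTSH6, a chloroplast protease of the FtsH family, had 12.2 and 3.22 in CTRL and 1960 and 2276 in LHS (log2 fold change 8.15, SE 0.48, adjusted p = 2.21e-06). The heat shock factor gene HSFA2 had 10.8 and 17.2 in CTRL and 3204 and 3198 in LHS. RLP43, a receptor-like protein, had 10.8 and 2.15 in CTRL and 1591 and 976 in LHS, so the LHS libraries were further apart in this gene than in the others of the group. MYB120, an R2R3-MYB factor known in Arabidopsis for its role in the pollen tube, had no read in CTRL and 176 and 197 scaled reads in LHS, at least 51.2-fold higher against a floor of 3 reads per library. Hop3, a co-chaperone that bridges HSP70 and HSP90, had 111 and 295 in CTRL and 29237 and 37043 in LHS. ABCF2, an ABC family protein without membrane domains, had 1.35 and 3.22 in CTRL and 443 and 600.4 in LHS. PUM9, a Pumilio RNA-binding protein, had 2.71 and 1.07 in CTRL and 398 and 456 in LHS, a ratio of 226 (95% counting interval 77 to 1097) from 3 CTRL reads. Groups did not overlap in any of the 10, which was a condition of the rule that chose them.

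The largest falls left genes that were read in both CTRL libraries with few or no reads in LHS. IGMT3, listed as an O-methyltransferase, had 833 and 554 in CTRL and 5.01 and 0 in LHS (log2 fold change −8.12, SE 0.73, adjusted p = 2.07e-05). CYP716A2, a cytochrome P450, had 229 and 409 in CTRL and 0 and 1.01 in LHS, a ratio of CTRL to LHS of 629 (95% counting interval 112 to 24877). EXPA17, a cell wall loosening expansin of lateral root formation, had 182 and 244 in CTRL and no read in LHS, at least 70.3-fold lower.
The wall enzyme XTH21, the fucosyltransferase FUT5 and the anion channel homologue SLAH1 also had no read in either LHS library. They were at 222 and 189, 167 and 237 and 309 and 124 in CTRL, which makes LHS at least 68-fold, 66.8-fold and 71.7-fold lower. GLL22, a GDSL lipase-like protein, had 1975 and 1995 in CTRL and 12.02 and 9.13 in LHS and JAL31, a jacalin-related lectin, had 800.5 and 1103 in CTRL and 7.01 and 3.04 in LHS. MYBL2, a repressor of flavonoid synthesis, had 3041 and 778 in CTRL and 9.01 and 6.08 in LHS, and its CTRL libraries were nearly 4-fold apart. BGLU21 is described with the ER bodies. LHS lay below CTRL in all 10, again by the rule.

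**Figure D1:**
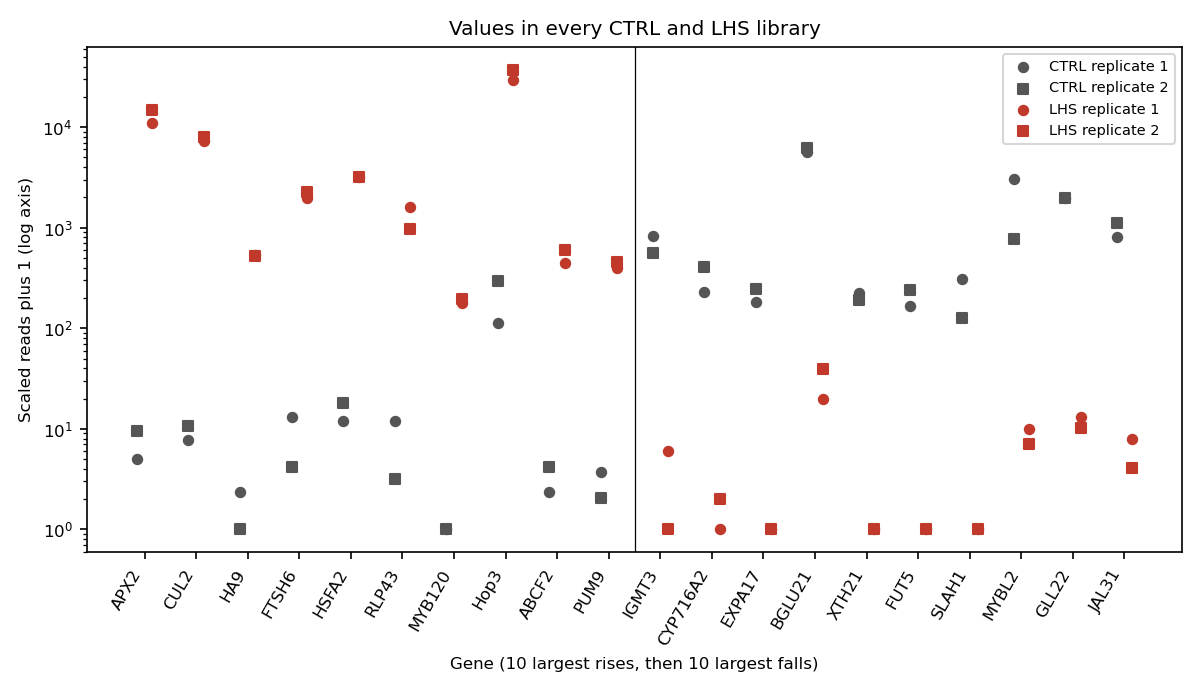
Scaled reads plus 1, on a log axis, for the 10 largest called rises and the 10 largest called falls among genes with a symbol and a mean of at least 100 in the higher group, outside genes described as heat shock proteins or chaperones, light-harvesting genes and ONSEN. Each point is 1 library (circles replicate 1, squares replicate 2). The LHS points of APX2 sit at 11074 and 14725 above CTRL points under 10, and those of EXPA17, XTH21, FUT5 and SLAH1 sit on the axis value of 1, which is no read.

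Heat shock factors bind inverted repeats of a short unit, of which GAANNTTC is the core pair. To show where such letters lie, the stretch from 180 bases before to 30 bases after the annotated gene start is given for the named risers that hold them, on the gene's strand, read from the RefSeq TAIR10.1 genome. Capitals mark each complete match to GAANNTTC, which reads the same on both strands.
APX2 (chr3:2955976-2956185, plus strand): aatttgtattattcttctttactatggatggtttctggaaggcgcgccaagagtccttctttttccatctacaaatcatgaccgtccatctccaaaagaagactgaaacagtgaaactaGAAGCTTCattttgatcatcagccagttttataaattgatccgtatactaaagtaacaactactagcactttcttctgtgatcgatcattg
HSFA2 (chr2:11135444-11135653, plus strand): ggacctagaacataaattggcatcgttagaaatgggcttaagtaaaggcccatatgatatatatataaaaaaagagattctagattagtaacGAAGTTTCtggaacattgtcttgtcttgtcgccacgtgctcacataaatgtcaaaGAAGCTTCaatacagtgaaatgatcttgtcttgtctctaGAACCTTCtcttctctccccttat
Hop3 (chr4:7341334-7341543, minus strand): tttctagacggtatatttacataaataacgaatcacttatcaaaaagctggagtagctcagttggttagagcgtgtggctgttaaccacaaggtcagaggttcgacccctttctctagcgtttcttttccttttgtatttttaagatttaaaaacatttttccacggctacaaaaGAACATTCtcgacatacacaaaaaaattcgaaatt
APX2 has 1 match, 61 bases before the start, HSFA2 has 3, at 88 and 33 bases before the start and 7 bases into the transcript, and Hop3 has 1 at 5 bases before. Over windows from 250 bases before to 50 after the start, 3 of 10 of the named risers and 2 of 10 of the named fallers held the core pair. Its share was 11.5% of all 26711 protein-coding windows, 16.4% of 1892 genes called and at least 4-fold higher and 9.9% of 3039 called and at least 4-fold lower. Heat shock protein genes were not removed from these sets. FTSH6, CUL2, HA9, RLP43, MYB120, ABCF2 and PUM9 do not have these letters in the window, which says nothing of whether a factor binds there.

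**Figure D2:**
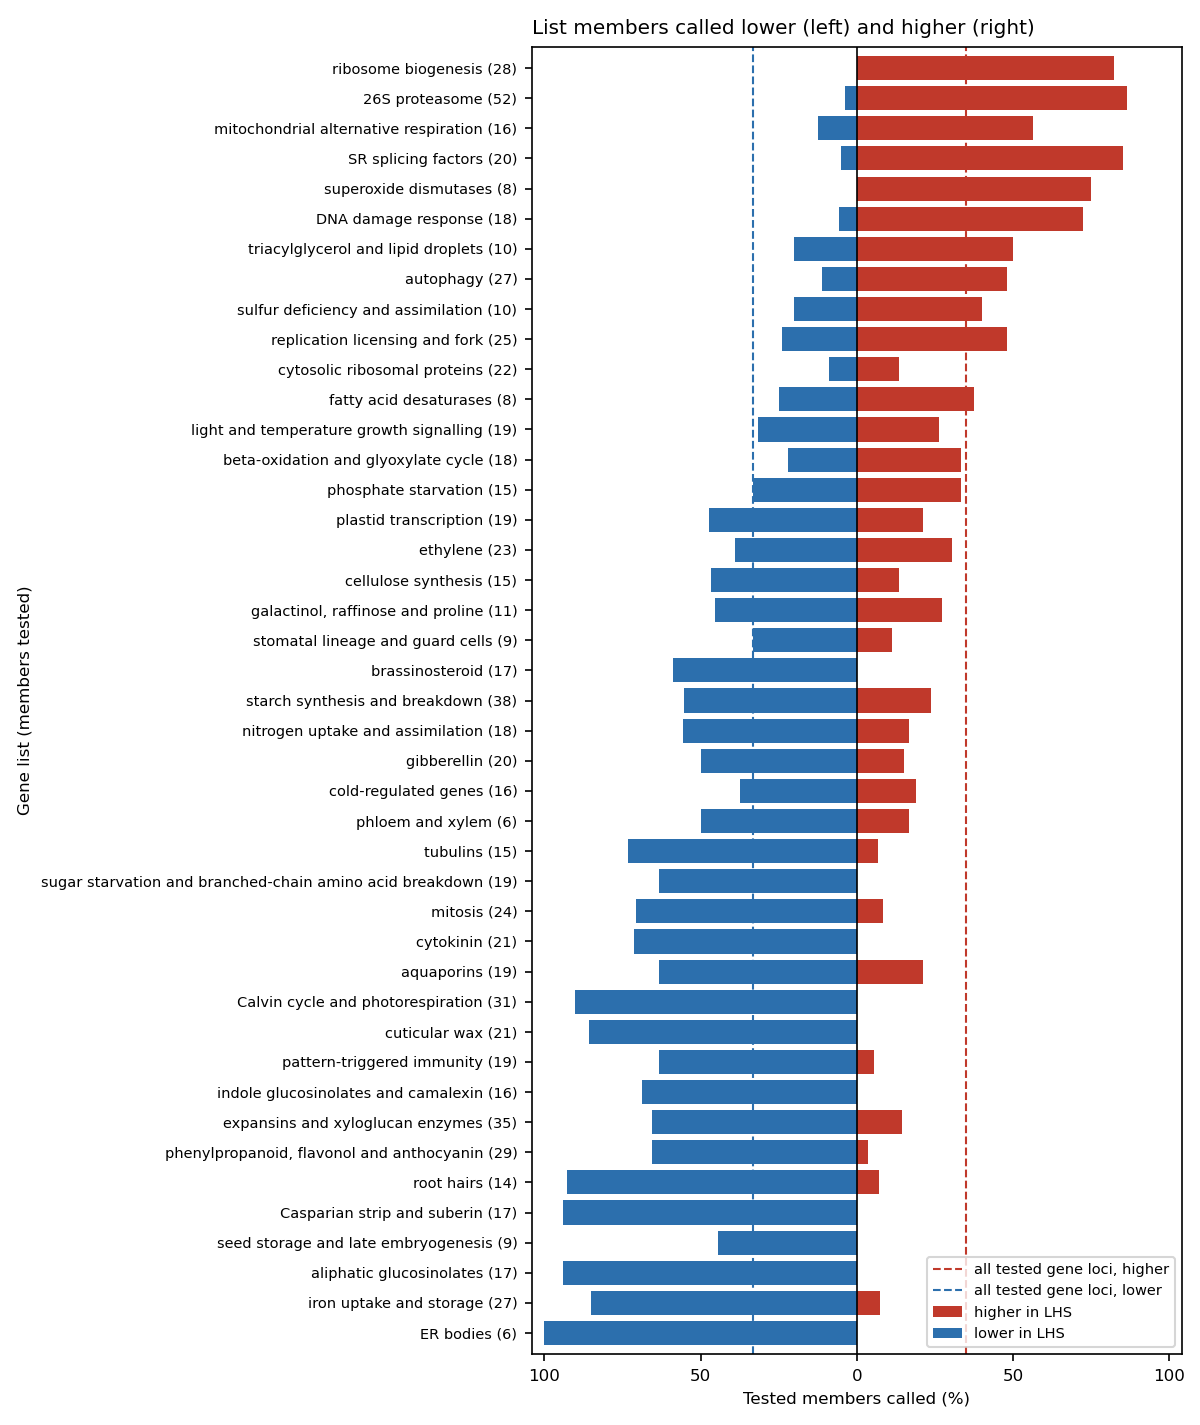
Tested members called higher (red, right) and lower (blue, left) in LHS as a percentage of each of 43 gene lists, ordered by the list's median log2 fold change, with the number tested in parentheses. Dashed lines mark the shares of all tested gene loci, 34.8% higher and 33.2% lower. Ribosome biogenesis and the proteasome stand at the top with over 80% of members higher, and ER bodies, iron uptake and aliphatic glucosinolates at the bottom.

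Genes for making ribosomes rose, while genes for the ribosomal proteins themselves mostly were not called. Of 28 ribosome biogenesis genes, 23 rose and none fell, with a median log2 fold change of 1.19. NUC2, a nucleolin of the nucleolus, had 77.2 and 107 in CTRL and 2162 and 2157 in LHS (log2 fold change 4.55, SE 0.19, adjusted p = 5.19e-07). Its paralogue NUC1, the main nucleolin of growing plants, had 7901 and 11824 in CTRL and 12664 and 14369 in LHS and was not called (log2 fold change 0.48, SE 0.20, adjusted p = 0.0582), but it was called without CTRL replicate 2 (0.77) and with DESeq2 (0.45). REIL2, a cytosolic maturation factor of the large subunit, had 1047 and 1215 in CTRL and 4859 and 4936 in LHS (log2 fold change 2.12), and the nucleolar factor NOF1 had 838 and 1196 in CTRL and 3968 and 4248 in LHS (2.03). Both CTRL libraries lay below both LHS libraries in all 3 of these called genes, and nearly all called gene loci lacked overlap. The summed level of the list was also lower in both CTRL libraries, at 45568 and 69002 scaled reads, than in LHS, at 127519 and 138449.

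Of 22 cytosolic ribosomal protein genes, 3 rose and 2 fell, with a median of 0.16. PGY2 of the large subunit had 703 and 902 in CTRL and 1690 and 1406 in LHS (0.95) and RPS18A of the small subunit had 2162 and 2675 in CTRL and 1539 and 1289 in LHS (−0.77), a call that was lost without LHS replicate 2. The summed level of the list was 127317 and 179010 scaled reads in CTRL and 176646 and 170330 in LHS, so the LHS libraries lay between the CTRL libraries. The counts changed with each library left out. Without CTRL replicate 1, 2 rose and 4 fell, without CTRL replicate 2, 11 rose and 1 fell, without LHS replicate 1, 1 rose and 2 fell, and without LHS replicate 2, 2 rose and none fell. Among all 351 tested genes described as ribosomal proteins with neither an organelle nor a bacterial-type subunit in the description, 113 rose and 54 fell, with a median of 0.16.

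Promoters of ribosome biogenesis genes often carry the telo-box AAACCCTA, an element named after the telomere repeat and known from genes of translation. It was present on either strand in 17 of 28 windows of the list, 9 of 22 of the ribosomal protein list and 6.2% of all windows. REIL2 shows it 160 bases before the start, in capitals, on the opposite strand.
REIL2 (chr2:10402905-10403114, minus strand): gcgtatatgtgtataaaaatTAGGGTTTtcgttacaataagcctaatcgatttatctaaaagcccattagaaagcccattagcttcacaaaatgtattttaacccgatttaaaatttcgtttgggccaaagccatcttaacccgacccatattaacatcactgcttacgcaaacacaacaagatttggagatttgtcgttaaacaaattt
Of the 17 ribosome biogenesis genes with the element 13 rose, as did 10 of the 11 without it.

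Most genes of the proteasome, which degrades ubiquitin-tagged proteins, rose. Of 52 genes of its core, its cap and its regulators, 45 rose and 2 fell, with a median of 1.07. The summed level was 84056 and 86317 scaled reads in CTRL and 190060 and 180922 in LHS. Among cap subunits, AT1G04810, listed as a regulatory non-ATPase subunit, had 2094 and 1986 in CTRL and 13060 and 13030 in LHS (log2 fold change 2.68, SE 0.10, adjusted p = 3.22e-07), AT5G20000, an AAA-type ATPase of the cap, had 799 and 945 in CTRL and 4740 and 5146 in LHS (2.51), and MEE34, listed by that name in the annotation, had 397 and 432 in CTRL and 1777 and 1583 in LHS (2.01). The fallers were PAE2 of the core's alpha ring at −0.40 and AT1G75990 of the cap at −0.49, and PAE2 lost its call without either LHS library. PAE1, the other gene of the same alpha subunit, rose by 0.80. Site II, TGGGCC, lay in 22 of 52 windows of the list, against 15.7% of all windows and 17.4% of those of tested gene loci. It is shown in capitals, on both strands, for the largest riser.
AT1G04810 (chr1:1349900-1350109, plus strand): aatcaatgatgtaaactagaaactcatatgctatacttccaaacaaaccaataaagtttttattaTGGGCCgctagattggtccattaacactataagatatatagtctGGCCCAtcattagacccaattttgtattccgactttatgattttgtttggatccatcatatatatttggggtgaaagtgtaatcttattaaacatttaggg

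Genes of autophagy, the route by which cells digest their own cytoplasm and aggregates in the vacuole, rose more often than they fell. Of 27 genes, 13 rose and 3 fell, with a median of 0.43. The shares were 48.1% and 11.1%, against 34.8% and 33.2% of all tested gene loci. The ubiquitin-like ATG8 proteins that coat the autophagosome divided. ATG8B had 596 and 452 in CTRL and 2004 and 2018 in LHS (1.95) and ATG8D rose by 1.47, while ATG8F had 2725 and 1491 in CTRL and 665 and 566 in LHS (−1.71) and ATG8E 1999 and 1059 in CTRL and 644 and 674 in LHS (−1.14). In both ATG8F and ATG8E the LHS libraries lay below CTRL, and the call of ATG8E was lost without LHS replicate 1. With only the CTRL and LHS libraries, 8 genes of the list rose and 1 fell. NBR1, a receptor that carries ubiquitinated aggregates to autophagosomes, rose by 0.81.

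Factors of messenger RNA splicing also rose. Of 20 genes for SR proteins, which bind exons and guide splice site choice, 17 rose and 1 fell, with a median of 1.00. SR45A had 374 and 497 in CTRL and 5863 and 5095 in LHS (log2 fold change 3.66, SE 0.15, adjusted p = 4.63e-07), SR30 had 771 and 725 in CTRL and 8816 and 7675 in LHS (3.46) and SCL33 had 1097 and 1215 in CTRL and 5629 and 5662 in LHS (2.29). The LHS libraries of all 3 lay close to each other and far above CTRL. The single faller was SCL30A at −0.54, whose call was lost without CTRL replicate 2 and without LHS replicate 1. These genes are themselves alternatively spliced, and a count per locus does not tell transcripts apart.

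In a normal cell cycle the genes of DNA replication rise first and those of mitosis later. At the end of heat the replication genes moved both ways and most mitotic genes fell. Of 25 genes for replication origins and forks, 12 rose and 6 fell, with a median of 0.38. Of 24 genes for mitosis, 2 rose and 17 fell, with a median of −1.16. In whole seedlings, fewer dividing cells and less RNA per dividing cell cannot be told apart. The summed level of the mitotic list was 14803 and 18897 scaled reads in CTRL and 7042 and 7641 in LHS, so LHS was lower than CTRL in every library.

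MCM5, a subunit of the ring helicase that opens DNA at forks, stood apart from the other subunits. It had 886 and 1156 in CTRL and 20371 and 19864 in LHS (log2 fold change 4.31, SE 0.15, adjusted p = 3.12e-07). The other 5 subunits of the ring ranged from 0.05 for MCM7, which was not called, to 0.89 for MCM4. The neighbouring gene that ends next to MCM5 on the opposite strand, ABCC13, fell from 321 and 274 to 72.1 and 82.2, and the next annotated locus on the other side, a pseudogene, had no read in CTRL and 34.1 and 30.4 in LHS (log2 fold changes −1.93 and 5.05). PCNA2 and PCNA1, which encode the sliding clamp of the polymerase, rose by 1.04 and 0.97. TSO2, a subunit of ribonucleotide reductase that makes the DNA building blocks, had 1254 and 1790 in CTRL and 412 and 322 in LHS (−2.04), and CDC45, a partner of the helicase, had 210.0 and 247 in CTRL and 79.1 and 46.6 in LHS (−1.89). Counts depended on single libraries, with 7 risers without LHS replicate 1, and 3 fallers without CTRL replicate 2 or without LHS replicate 2. MCM5 kept its call and TSO2 and CDC45 theirs in each of these fits.

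The E2F factors that switch on S-phase genes bind TTTCCCGC. It lay in 10 of 25 windows of the replication list, in 0 of 24 of the mitotic list and in 0.8% of all windows. MCM5 has it 19 bases before its start, in capitals.
MCM5 (chr2:3527471-3527680, minus strand): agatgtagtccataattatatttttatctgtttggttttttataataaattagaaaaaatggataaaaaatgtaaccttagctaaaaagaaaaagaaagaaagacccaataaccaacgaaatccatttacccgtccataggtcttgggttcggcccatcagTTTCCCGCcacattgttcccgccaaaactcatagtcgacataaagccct
Of the 10 replication genes with the site 6 rose and 1 fell, and of the 15 without it 6 rose and 5 fell.

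Among mitotic genes, the B-type cyclin CYCB1;2 had 1103 and 1344 in CTRL and 153 and 176 in LHS (log2 fold change −2.88, SE 0.16, adjusted p = 1.59e-06). TPX2, which nucleates spindle microtubules, had 1295 and 1768 in CTRL and 207 and 217 in LHS (−2.83), and KNOLLE, the syntaxin that fuses vesicles at the new cell plate, had 1481 and 2012 in CTRL and 303 and 337 in LHS (−2.43). CYCB1;1, the B-type cyclin that also rises after DNA damage, fell by 1.16. The 2 risers were the centromeric kinase gene AUR3 at 0.83 and AT2G20635 at 0.47. Neither was called without LHS replicate 2, and AT2G20635 was also not called without CTRL replicate 1 or LHS replicate 1 or with edgeR, DESeq2 or TMM scaling.

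Genes of the DNA damage response rose. Of 18 genes, 13 rose and 1 fell, with a median of 0.96. The largest rises were in the NAC factor genes ANAC044, with 23.03 and 17.2 in CTRL and 1679 and 1878 in LHS (log2 fold change 6.41, SE 0.36, adjusted p = 1.82e-06), and ANAC085, with 2.71 and 2.15 in CTRL and 176 and 161 in LHS (5.63), which are targets of SOG1 that hold the cycle before mitosis, and in SMR5, an inhibitor of cyclin-dependent kinases, with 2.71 and 4.29 in CTRL and 155 and 149 in LHS (5.11). In all 3 the LHS libraries were more than 20-fold above CTRL. SOG1, the central NAC regulator of the response, which is controlled by phosphorylation, had 558 and 388 in CTRL and 477 and 536 in LHS and was not called (log2 fold change 0.12, SE 0.18, adjusted p = 0.579). The checkpoint kinase genes ATM and ATR rose by 0.96 and 1.12. The thymidine kinase gene TK1A fell from 131 and 159.8 to 38.05 and 31.4 (−2.04).

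Most tubulin genes and most genes of cell wall loosening fell. Of 15 tubulin genes, 11 fell and 1 rose, with a median of −0.92. TUB5 had 12205 and 10524 in CTRL and 1199 and 1080 in LHS (log2 fold change −3.32, SE 0.11, adjusted p = 2.53e-07) and TUB1 had 1150 and 1328 in CTRL and 314 and 206 in LHS (−2.28). TUA1, an alpha tubulin gene known from pollen, was the riser at 0.66, a call that was lost without CTRL replicate 2, without either LHS library and with no filter on low values. Of 35 expansin and xyloglucan enzyme genes, 23 fell and 5 rose, with a median of −1.66. Beside EXPA17 and XTH21, XTH20 had 111 and 178 in CTRL and 2 and 0 in LHS, a ratio of 144 (95% counting interval 39.5 to 1199), and EXPA8 had 2475 and 2078 in CTRL and 27.04 and 38.5 in LHS (−6.09).

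The 5 risers in that list were 4 xyloglucan enzyme genes and the expansin gene EXPA10 (0.61), a call that was lost with a pseudocount of 0.1, with no filter, with TMM scaling, with the replicate block, with only the CTRL and LHS libraries, and without CTRL replicate 1, LHS replicate 1 or any single recovery library. XTH23, whose enzyme cuts and rejoins xyloglucan chains, had 118 and 74.02 in CTRL and 1536 and 1310 in LHS (log2 fold change 3.91, SE 0.21, adjusted p = 1.42e-06), XTH25 had 21.7 and 5.36 in CTRL and 73.1 and 63.9 in LHS (2.53) and XTH24 rose by 1.55. Without LHS replicate 1, 3 members of the list rose. Cellulose synthesis genes stayed within 2-fold. Of 15 genes, 7 fell and 2 rose, with values between −0.74 and 0.92. Fallers numbered 4 without CTRL replicate 1 and 3 without LHS replicate 2.

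**Figure D3:**
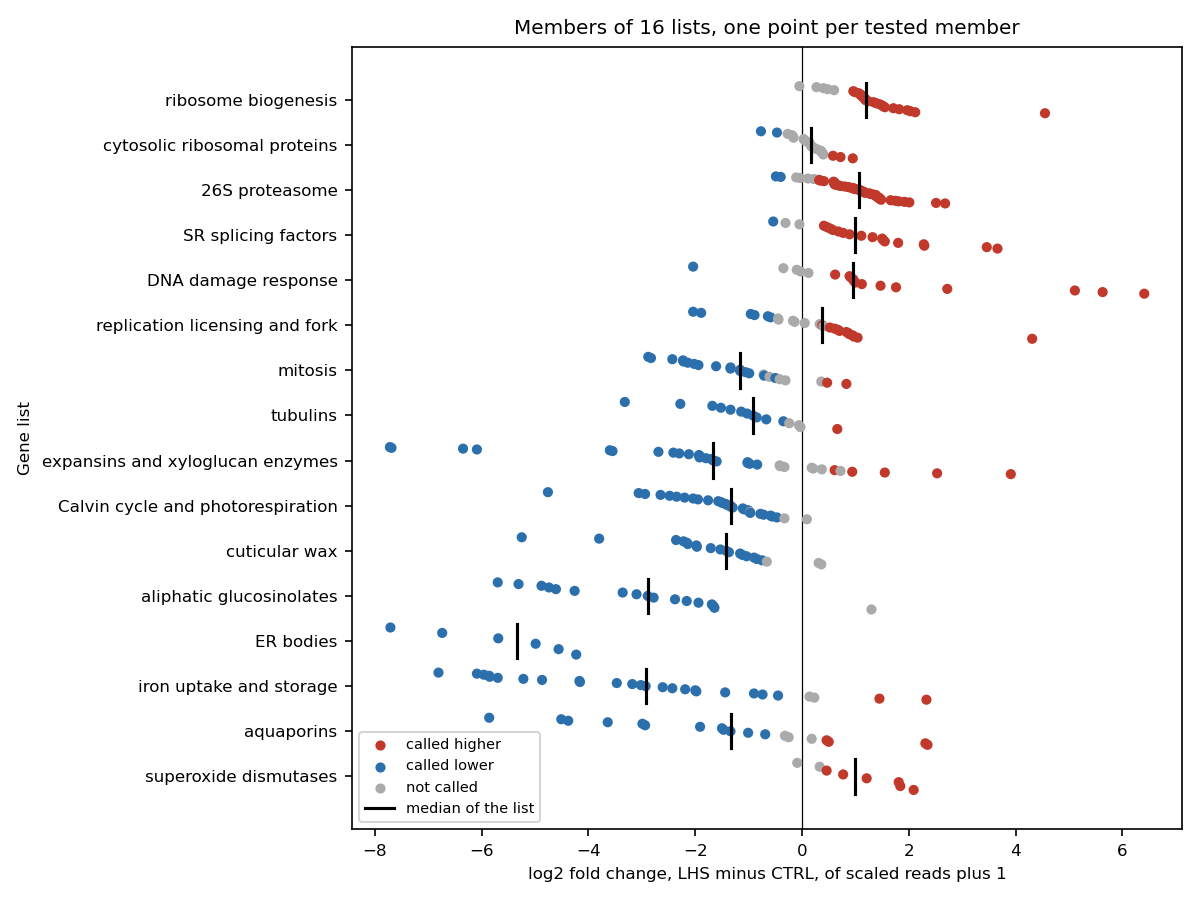
Log2 fold change of every tested member of 16 lists, 1 point for each gene, coloured by call, with a bar at the list's median. The replication and DNA damage lists lie mostly to the right of 0 and the mitosis list to the left. MCM5 is the single replication gene past 4, and the 6 ER body genes all lie below −4.

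Genes of carbon fixation fell nearly throughout. Of 31 Calvin cycle and photorespiration genes, 28 fell and none rose, with a median of −1.34. The summed level was 1132135 and 1021369 scaled reads in CTRL and 392133 and 410389 in LHS. CP12-2, a small protein that holds Calvin cycle enzymes in an inactive complex in the dark, had 4195 and 4146 in CTRL and 153 and 152 in LHS (log2 fold change −4.76, SE 0.13, adjusted p = 1.37e-07), while CP12-1 had 3851 and 3319 in CTRL and 3416 and 4244 in LHS and was not called. In photorespiration, which salvages the product of oxygenation by Rubisco, the aminotransferase AGT1 had 39022 and 25210 in CTRL and 4095 and 4097 in LHS (−2.94), and LrgB, known as the glycolate and glycerate transporter of the plastid, had 2434 and 1786 in CTRL and 282 and 220.1 in LHS (−3.06). SBPASE of the Calvin cycle fell by 2.65 and RCA, the heat-sensitive activase of Rubisco, by 1.76.

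Starch genes fell more often than they rose, 21 against 9 of 38, with a median of −0.68. Members of the beta-amylase family, which release maltose, went opposite ways. BAM3, the main enzyme of leaf starch breakdown at night, had 4157 and 5235 in CTRL and 658 and 678 in LHS (log2 fold change −2.80, SE 0.13, adjusted p = 8.08e-07), BAM5, which lies outside the plastid, had 9.48 and 5.36 in CTRL and 61.1 and 68.96 in LHS (log2 fold change 3.01, SE 0.50, adjusted p = 0.000796), and BAM1, the stress-related plastid enzyme, rose by 1.40. LHS was below CTRL in BAM3 and above it in BAM5 in every library. AMY1, an alpha-amylase outside the plastid, had 5.42 and 19.3 in CTRL and 58.1 and 88.2 in LHS (2.67), GBSS1 of amylose synthesis rose by 1.38, and APL1 of ADP-glucose synthesis fell by 2.42.

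Genes known to rise in darkness and sugar starvation were at low levels in LHS. Of 19 such genes, 12 fell and none rose, with a median of −0.95. Without CTRL replicate 1, 9 fell and 1 rose, without CTRL replicate 2, 15 fell, and without either LHS library 7 fell. ASN1 had 2868 and 198 in CTRL and 42.1 and 10.1 in LHS and SEN1 2423 and 309 in CTRL and 49.1 and 53.8 in LHS. In both genes CTRL replicate 1 lay far above CTRL replicate 2, and both lay above LHS. ASN1 was not called without LHS replicate 2. BGLU30 had 496 and 615 in CTRL and 49.1 and 61.9 in LHS, with CTRL libraries that were close to each other, and was called in the fit of all libraries (adjusted p = 0.0149) but not without CTRL replicate 2 or without either LHS library.

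Beta-oxidation and the glyoxylate cycle, by which seedlings use stored oil, divided. Of 18 genes 6 rose and 4 fell, or 33.3% and 22.2% against 34.8% and 33.2% of all tested gene loci. LACS7, which activates fatty acids at the peroxisome, had 689.5 and 648 in CTRL and 2277 and 2107 in LHS (1.71), and the oxidase gene ACX1 rose by 1.1. PCK1, which turns oil carbon into sugar, had 7947 and 6389 in CTRL and 1191 and 1183 in LHS (−2.59), and MLS of the glyoxylate cycle had 233 and 602 in CTRL and 108 and 67.95 in LHS (−2.11), with CTRL replicates apart and no call without LHS replicate 2.

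Genes of membrane and storage lipids moved both ways. Of 8 fatty acid desaturase genes 3 rose and 2 fell. FAD8, the plastid desaturase that makes trienoic fatty acids and is known to be active in the cold, had 1313 and 1693 in CTRL and 155 and 194 in LHS (log2 fold change −3.1, SE 0.17, adjusted p = 1.53e-06). FAD7, its paralogue for the same step, had 6719 and 6252 in CTRL and 7937 and 7478 in LHS and was not called, except without CTRL replicate 1 (0.30). FAD4 rose by 1.27, and without CTRL replicate 2 the list had 4 fallers. Of 10 genes of triacylglycerol and lipid droplets 5 rose and 2 fell. AT1G67360, listed as a rubber elongation factor protein, a family that coats lipid droplets, had 301 and 437 in CTRL and 4662 and 4676 in LHS (log2 fold change 3.68, SE 0.16, adjusted p = 5.89e-07). DGAT2, which makes triacylglycerol, had 428 and 348 in CTRL and 1793 and 1801 in LHS (2.22), and AT4G13550, listed as a putative triglyceride lipase, had 1206 and 1009 in CTRL and 4375 and 4805 in LHS (2.05). A seipin gene, AT5G16460, had 9.48 and 27.9 in CTRL and no read in LHS, at least 6.18-fold lower.

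Wax genes fell, with no exception among those called. Of 21 tested genes 18 fell and none rose, with a median of −1.42. CER4, the reductase that makes primary alcohols, had 154 and 197 in CTRL and 6.01 and 2.03 in LHS (log2 fold change −5.25, SE 0.43, adjusted p = 1.36e-05). KCS1, which extends fatty acids, had 2972 and 2300 in CTRL and 302 and 116 in LHS (−3.80), and CER1 of alkane synthesis fell by 1.71. The factor gene MYB96, which activates wax genes in drought, had 387 and 387 in CTRL and 512 and 482 in LHS and was not called.

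A list of mitochondrial alternative respiration genes also held markers of the retrograde response, by which the nucleus reacts to failing mitochondria. Its members rose more often than they fell. Of 16 genes 9 rose and 2 fell, with a median of 1.03. AT2G21640, described in the annotation as a marker of oxidative stress response, had 29.8 and 51.5 in CTRL and 2400 and 2235 in LHS (log2 fold change 5.85, SE 0.28, adjusted p = 9.13e-07), and AT5G09570, a Cox19-like protein, had 1.35 and 6.44 in CTRL and 269 and 209 in LHS (5.83). ANAC013, a membrane-bound NAC factor of this response, had 271 and 340.0 in CTRL and 3921 and 4829 in LHS (3.84), while ANAC017, another such factor, fell by 0.33, without a call when LHS replicate 1 was left out. AOX1A, the main alternative oxidase, had 1731 and 1598 in CTRL and 2854 and 3162 in LHS (0.85), and AOX1C had 9.48 and 20.4 in CTRL and 169 and 151 in LHS (3.43).

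Plastid transcription genes fell in 9 and rose in 4 of 19 cases. SIG4, a sigma factor of the plastid RNA polymerase, had 1792 and 1893 in CTRL and 299 and 394 in LHS (−2.42). FLN1, a fructokinase-like part of the polymerase complex, had 864 and 1519 in CTRL and 5459 and 6413 in LHS (log2 fold change 2.37, SE 0.23, adjusted p = 3.35e-05), and SCA3, the phage-type RNA polymerase of the plastid, had 1533 and 2095 in CTRL and 7601 and 7956 in LHS (2.12). Superoxide dismutases, which turn superoxide into hydrogen peroxide, rose in 6 and fell in none of 8 cases. CSD2, the plastid copper and zinc enzyme, had 554 and 499 in CTRL and 2348 and 2153 in LHS (2.09), CSD1 of the cytosol rose by 1.81 and CCS, the chaperone that loads both with copper, by 1.84. FSD2, an iron enzyme of the plastid, had 679 and 1153 in CTRL and 864 and 800.2 in LHS and was not called, but the list had 1 faller without CTRL replicate 1.

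Genes for compatible solutes, small molecules that build up under stress, moved both ways. GOLS1, a galactinol synthase that starts raffinose synthesis and is a known heat shock factor target, had 424 and 375 in CTRL and 27446 and 31660 in LHS (log2 fold change 6.20, SE 0.16, adjusted p = 1.04e-07), and GOLS2 had 27.1 and 72.9 in CTRL and 489.7 and 369 in LHS (3.23). GOLS3, the family member known from cold, had 43.4 and 50.4 in CTRL and 5.01 and 13.2 in LHS (−2.37). P5CS1, which makes proline, fell by 1.92, and ERD5, the proline dehydrogenase that breaks it down, fell by 2.18. Risers in the list of 11 genes numbered 3, or 5 with CTRL replicate 2 left out, against 5 fallers.

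Genes of secondary metabolism had some of the lowest list medians of the comparison. Of 17 aliphatic glucosinolate genes, which make the methionine-derived defence compounds of the cabbage family, 16 fell and none rose, with a median of −2.89. AOP2 of side chain modification had 264 and 474 in CTRL and 22.03 and 1.01 in LHS (log2 fold change −5.70, SE 0.90, adjusted p = 0.000544), CYP79F1 of the core pathway had 2300 and 3937 in CTRL and 137 and 40.6 in LHS (−5.31), and MYB76, one of the pathway's activators, had 54.2 and 62.2 in CTRL and 3 and 0 in LHS, a ratio of 38.7 (95% counting interval 12.9 to 191). The main activators MYB28 and MYB29 fell by 2.38 and 3.1. AOP3, a neighbouring paralogue of AOP2 with very few reads, had 0 and 0 in CTRL and 1 and 2.03 in LHS and was not called.

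Of 16 genes for indole glucosinolates and camalexin 11 fell and none rose, with a median of −1.55. CYP71A12 had 144 and 77.2 in CTRL and no read in LHS, at least 36.5-fold lower. IGMT1, an indole glucosinolate methyltransferase and relative of IGMT3, had 1581 and 635 in CTRL and 18.03 and 19.3 in LHS (−5.67), and close members of that tandem family may share reads. PAD3, the last enzyme of camalexin synthesis, had 106 and 167 in CTRL and 69.1 and 94.3 in LHS and was not called.

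ER bodies are compartments of root and seedling epidermis that store beta-glucosidases, which act on glucosinolates when cells break. All 6 genes of the list fell, with a median of −5.34. BGLU21 had 5628 and 6180 in CTRL and 19.03 and 38.5 in LHS (log2 fold change −7.71, SE 0.30, adjusted p = 4.2e-07) and BGLU22, its near neighbour, 3187 and 3717 in CTRL and 32.05 and 30.4 in LHS. PYK10, the main enzyme, had 92521 and 116831 in CTRL and 5444 and 5664 in LHS (−4.23). NAI2, the protein that shapes the bodies, had 14444 and 19314 in CTRL and 316 and 328 in LHS (−5.69), and NAI1, the bHLH factor that activates these genes, had 1124 and 1293 in CTRL and 60.1 and 41.6 in LHS (−4.56). In every gene LHS lay at least 10-fold below CTRL.

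Phenylpropanoid genes, which lead to lignin, flavonols and anthocyanins, fell in 19 of 29 cases and rose in 1, with a median of −1.68. At the entry of the pathway PAL1 had 5120 and 6231 in CTRL and 618 and 345 in LHS (−3.61) and PAL2 4669 and 4151 in CTRL and 362 and 302 in LHS (−3.73). DFR, of the anthocyanin branch, had 28.4 and 227 in CTRL and 4.01 and 0 in LHS (−5.20), where CTRL was uneven between libraries. TT19, which carries anthocyanin to the vacuole, had 8.13 and 83.7 in CTRL and no read in LHS, at least 15.2-fold lower. CHS, the first enzyme of the flavonoid branch, had 986 and 2282 in CTRL and 1866 and 2277 in LHS and was not called, except without CTRL replicate 2 (1.06). MYB111, an activator of flavonol genes, was the riser at 1.74, without a call when either LHS library was left out, and without CTRL replicate 2 the list had 4 risers.

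Pattern-triggered immunity, the defence set off by microbial molecules, fell in 12 and rose in 1 of 19 cases, with a median of −1.45. FLS2, the receptor for bacterial flagellin, had 753 and 428 in CTRL and 65.1 and 45.6 in LHS (log2 fold change −3.36, SE 0.27, adjusted p = 1.12e-05), and FRK1, a reporter of this response, had 127 and 102 in CTRL and 5.01 and 0 in LHS (−5.55). PROPEP3, which encodes the precursor of an alarm peptide, had 121 and 90.1 in CTRL and 2 and 1.01 in LHS, a ratio of 69.8 (95% counting interval 23.5 to 342). EFR, the receptor for bacterial elongation factor Tu, rose from 133 and 104 to 222 and 234 (0.95), so these receptors of bacterial proteins went opposite ways. The kinase gene MPK6 was not called (0.01) and MPK3 fell by 1.45.

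Most iron genes fell, while a pair of ferritin genes rose. In the iron list of 27 tested genes 23 fell and 2 rose, with a median of −2.93. Of the bHLH factors that mark iron deficiency, BHLH38, BHLH100 and BHLH101 had no read in LHS, against 59.6 and 206, 31.2 and 120.1 and 67.7 and 47.2 in CTRL, at least 43.9-fold, 25-fold and 19-fold lower. The CTRL libraries differed nearly 4-fold in BHLH100 and more than 3-fold in BHLH38. IRT1, the iron transporter of the root surface, had 603 and 342 in CTRL and 3 and 10.1 in LHS (−6.09), FRO2, the reductase beside it, had 612 and 401 in CTRL and 8.01 and 7.1 in LHS (−5.86), and FRU, the bHLH factor that controls both, had 471 and 499.9 in CTRL and 44.1 and 41.6 in LHS (−3.47). The locus AT2G30766, also in the list, had 158 and 343 in CTRL and 1 and 9.13 in LHS (−5.70). FER2, a ferritin known from seeds that stores iron, had 67.7 and 56.9 in CTRL and 305 and 328 in LHS (log2 fold change 2.33, SE 0.26, adjusted p = 6.74e-05), FER4 rose by 1.45, and the leaf ferritin gene FER1 was not called (0.14).

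Markers of root cell types fell together with these root genes. All but 1 of 14 root hair and root epidermis genes fell, with a median of −2.0 and summed levels of 5844 and 6483 scaled reads in CTRL and 4375 and 3961 in LHS. RSL2, a bHLH factor of root hair growth, had 158 and 211 in CTRL and 4.01 and 7.1 in LHS (−4.85) and the wall protein PRP3 182 and 244 in CTRL and 17.02 and 7.1 in LHS (−4.13). The cellulose synthase-like CSLD3 rose by 0.26, a call that was lost with TMM scaling, edgeR, DESeq2 and the leaving out of most single libraries. Of 17 Casparian strip and suberin genes of the root endodermis 16 fell and none rose, with summed levels of 8507 and 7337 scaled reads in CTRL and 2436 and 1768 in LHS. CASP2 had 278 and 210.3 in CTRL and 5.01 and 5.07 in LHS and GPAT5 of suberin synthesis 204 and 151 in CTRL and 17.02 and 2.03 in LHS (−4.58). Every member of both lists had reads in both LHS libraries. The part of these lower root markers in the falls of iron, nitrate and aquaporin genes was not tested.

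Few shoot and vascular marker genes rose. The share of stomatal genes that fell, 33.3%, was close to the 33.2% of all tested gene loci. Their share that rose was lower, at 11.1% against 34.8%. Stomatal genes fell in 3 and rose in 1 of 9 cases, and none rose without either LHS library, with summed levels of 2736 and 2749 scaled reads in CTRL and 2171 and 2438 in LHS. EPF1, a peptide that spaces stomata, fell by 1.58, while the guard cell factor MYB60 had 372 and 348 in CTRL and 322 and 383 in LHS and was not called. SUC2 and SEOR1, markers of phloem companion cells and sieve elements, fell by 2.2 and 2.04, and the xylem protease gene XCP2 rose by 0.41, not called without LHS replicate 2. Seed storage genes were called lower in 4 of 9 cases, but in 5 without CTRL replicate 1, in 1 without CTRL replicate 2 or without LHS replicate 2, and in 7 without LHS replicate 1. CRA1, a storage globulin, had 424 and 1445 in CTRL and 358 and 54.8 in LHS, and its call was lost without CTRL replicate 2 or LHS replicate 2.

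Transporters for nitrogen, sulfur and water changed unevenly. Of 18 tested nitrogen genes 10 fell and 3 rose. NRT1.5, which loads nitrate into the xylem, had 9242 and 7112 in CTRL and 419.6 and 406 in LHS (log2 fold change −4.29, SE 0.13, adjusted p = 1.81e-07), and AMT1;3 of ammonium uptake had 584 and 516 in CTRL and 83.1 and 80.1 in LHS (−2.73). AMT2, another ammonium transporter, had 239.8 and 272 in CTRL and 847 and 816 in LHS (1.70), and without either LHS library 1 gene of the list rose. In the sulfur list 4 genes rose and 2 fell of 10. The root sulfate transporters SULTR1;1 and SULTR1;2 fell by 3.09 and 2.98, while APR2 of sulfate reduction had 2335 and 3208 in CTRL and 6596 and 8128 in LHS (1.42). Risers numbered 2 without either LHS library, and fallers 4 without CTRL replicate 1.

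Of 15 phosphate starvation genes 5 rose and 5 fell, and 3 rose without either LHS library. With all libraries the shares that rose and fell were 33.3% each, near the 34.8% and 33.2% of all tested gene loci. SPX3, a phosphate sensor gene that rises in deficiency, had 27.1 and 36.5 in CTRL and 278 and 296 in LHS (log2 fold change 3.15, SE 0.31, adjusted p = 3.8e-05), and SQD1, which makes sulfolipid, had 2414 and 3521 in CTRL and 11798 and 11481 in LHS (2.0). PHO1, which exports phosphate to the xylem, had 4756 and 3984 in CTRL and 1008 and 1119 in LHS (−2.03). Aquaporins, the water channels, fell in 12 and rose in 4 of 19 cases, with a median of −1.34. TIP4;1 of the vacuole had 253 and 239 in CTRL and 5.01 and 2.03 in LHS (log2 fold change −5.86, SE 0.35, adjusted p = 2.49e-06) and TIP2;3 1262 and 609 in CTRL and 34.05 and 41.6 in LHS (−4.51). Within the plasma membrane class, PIP2;3 had 623 and 436 in CTRL and 2500 and 2830 in LHS (2.35), while PIP2;2, its near-identical neighbour, had 6356 and 4118 in CTRL and 1270 and 1462 in LHS (−1.91), and reads may be divided between these copies with error.

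Of the hormone lists, cytokinin, brassinosteroid and gibberellin genes fell more often than they rose, and ethylene genes lay near the shares of all gene loci. None of 21 cytokinin genes rose and 15 fell, with a median of −1.33. The median was −0.97 with 1 gene at 0 in a group, for which no bound is given, set to no change. ARR16 and ARR15, response regulators that are switched on by cytokinin, had 54.2 and 81.5 in CTRL and 2 and 7.1 in LHS (−3.77) and 39.3 and 66.5 in CTRL and 5.01 and 5.07 in LHS (−3.11), and IPT5 of cytokinin synthesis had 139.5 and 105 in CTRL and 11.02 and 9.13 in LHS (−3.47). None of 17 brassinosteroid genes rose and 10 fell, among them BR6OX1 of the last synthetic steps, with 122 and 159 in CTRL and 8.01 and 5.07 in LHS (−4.24), and the response factor BES1, with 3599 and 3302 in CTRL and 683 and 701 in LHS (−2.32). The receptor gene BRI1 was not called (−0.07).

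Gibberellin genes fell in 10 and rose in 3 of 20 cases. GA3OX1, which makes the active hormone, had 118 and 152 in CTRL and 528 and 573 in LHS (2.03), and GA2OX2, which inactivates it, had 109.7 and 70.8 in CTRL and 444 and 338 in LHS (2.12), while GA2OX1 had 54.2 and 53.6 in CTRL and 1 and 3.04 in LHS (−4.27). The DELLA repressor gene GAI fell by 2.15. Ethylene genes rose in 7 and fell in 9 of 23 cases. These are 30.4% and 39.1%, near the 34.8% and 33.2% of all tested gene loci. ACS5, a synthase of the hormone's precursor, had 78.6 and 72.9 in CTRL and 1 and 0 in LHS, a ratio of 151 (95% counting interval 26.7 to 6023), ACO1 fell by 2.92, and ACS11 rose by 1.64.

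Among light and temperature signalling genes 5 rose and 6 fell of 19. The shares were 26.3% and 31.6%, against 34.8% and 33.2% of all tested gene loci. PIF4, the factor that drives stem growth in moderate warmth, had 2556 and 1669 in CTRL and 92.1 and 81.1 in LHS (log2 fold change −4.56, SE 0.29, adjusted p = 3.25e-06), and PIF5 had 2610 and 1568 in CTRL and 429.6 and 562 in LHS (−2.04). PIF7, another factor of warm temperature growth, had 657 and 469.8 in CTRL and 1163 and 1367 in LHS (1.18), so relatives in 1 family went opposite ways. PHYB, the light receptor that also senses temperature, rose by 0.33, a call that was lost without CTRL replicate 1 or either LHS library. Cold-regulated genes fell in 6 and rose in 3 of 16 cases, or 37.5% and 18.8% against 33.2% and 34.8% of all tested gene loci. COR15B and COR15A, which protect chloroplast membranes from freezing, had 1298 and 1673 in CTRL and 16.02 and 13.2 in LHS (−6.57) and 345 and 1585 in CTRL and 22.03 and 32.5 in LHS (−4.74). KIN1 had 414 and 819.5 in CTRL and 7516 and 5381 in LHS (3.45), and KIN2, its near-identical neighbour, with which it may share reads, had 3481 and 3621 in CTRL and 3832 and 3132 in LHS and was not called.

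Wider families, taken from the annotation's descriptions, differed in the share that moved each way. Of 265 tested pentatricopeptide repeat genes, which mostly serve RNA processing in organelles, 158 rose and 22 fell, with a median of 0.79. Of 301 tested F-box genes, of 629 in the table, 164 rose and 39 fell. Since most F-box loci did not pass the filter on low values, a gene that passed through its LHS level alone had to be higher. In contrast 45 of 59 tested peroxidase genes fell and 5 rose, with a median of −2.25, and AT3G01190 went from 1940 and 1388 to 25.04 and 24.3. Risers among them numbered 3 without CTRL replicate 1 or without LHS replicate 2. Cytochromes P450 fell in 117 and rose in 32 of 211 cases, receptor-like kinases fell in 189 and rose in 52 of 333, and UDP-glycosyltransferases fell in 56 and rose in 31 of 127. Glutathione S-transferases, which attach glutathione to reactive compounds, fell in 30 and rose in 15 of 53. Of 19 ribosomal protein genes whose description names an organelle or a bacterial-type subunit 9 rose and 6 fell, with 3 fallers without LHS replicate 2. Fallers among the 351 other ribosomal protein genes numbered 85 without CTRL replicate 1 and 33 without LHS replicate 2.

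Single members of these families rose by large amounts. CYP71B19 had 41.99 and 67.6 in CTRL and 4265 and 5016 in LHS (6.41). CYP707A4, of the family that breaks down abscisic acid, had 79.9 and 75.1 in CTRL and 2863 and 2807 in LHS (5.18). The glycosyltransferase gene UGT73C1 had 33.9 and 56.9 in CTRL and 1643 and 2060 in LHS (5.36). Transcription factor families fell more than they rose in WRKY (36 and 7 of 65), bHLH (70 and 19 of 120), MYB (69 and 33 of 144) and ERF genes (29 and 17 of 88). The share of ERF genes that fell, 33.0%, was close to the 33.2% of all tested gene loci. Their share that rose was lower, at 19.3% against 34.8%. In the NAC family 33 fell and 30 rose of 88. At 37.5% and 34.1%, these shares were near the 33.2% and 34.8% of all tested gene loci. WRKY46 had 16.2 and 13.9 in CTRL and 454 and 477 in LHS (4.86), and DREB2C, an ERF factor known to act in heat, had 226 and 183 in CTRL and 3793 and 4264 in LHS (4.30).

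Of 31189 transposable element loci, 3014 passed the filter on low values and were tested. ONSEN copies were not removed, so the counts and signal shares in this paragraph include them. Of these 1212 rose and 421 fell, 40.2% and 14.0%, and 684 of the risers had no read in CTRL. A locus without reads in CTRL passed the filter through heated or recovering libraries alone and could not fall, so these shares do not describe element loci as a whole. The share of tested loci that rose was between 38.5% and 41.5% on each of the 5 chromosomes, as read from the locus identifiers. Element loci took 0.59% and 0.63% of reads in CTRL and 3.58% and 4.39% in LHS. In LHS the 10 highest element loci held 66.7% and 72.7% of the element signal. Without those 10, which were chosen by their LHS level, the summed element signal was still 314497 and 337273 in LHS against 150744 and 149659 in CTRL.

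Motif shares differed between bins of fold change. The heat shock element core was in 9.2% of 698 windows of genes below −4 on the log2 scale, in 11.2% of 6460 between 0 and 1, in 19.4% of 196 between 4 and 5, in 14.2% of 106 between 5 and 6 and in 19.4% of 93 above 6. Site II was in 4.0% of windows below −4, in 27.7% of 3049 between 1 and 2, in 16.8% between 4 and 5 and in 26.9% above 6. The telo-box was in 2.7% of windows below −4 and in 10.7% of 1091 between 2 and 3. The G-box CACGTG was in 7.6% of the genes called and at least 4-fold higher and 7.9% of those at least 4-fold lower. It was in 7.8% of all windows, 8.6% of those of tested gene loci and 9.5% of those tested and not called. The evening element AAAATATCT was in 2.8% and 3.9% of the same higher and lower sets, against 2.9% of all windows and of tested gene loci. These shares are descriptions with no test, and neighbouring genes can share a window. Heat shock protein genes were not removed from the bins or sets.

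**Figure D4:**
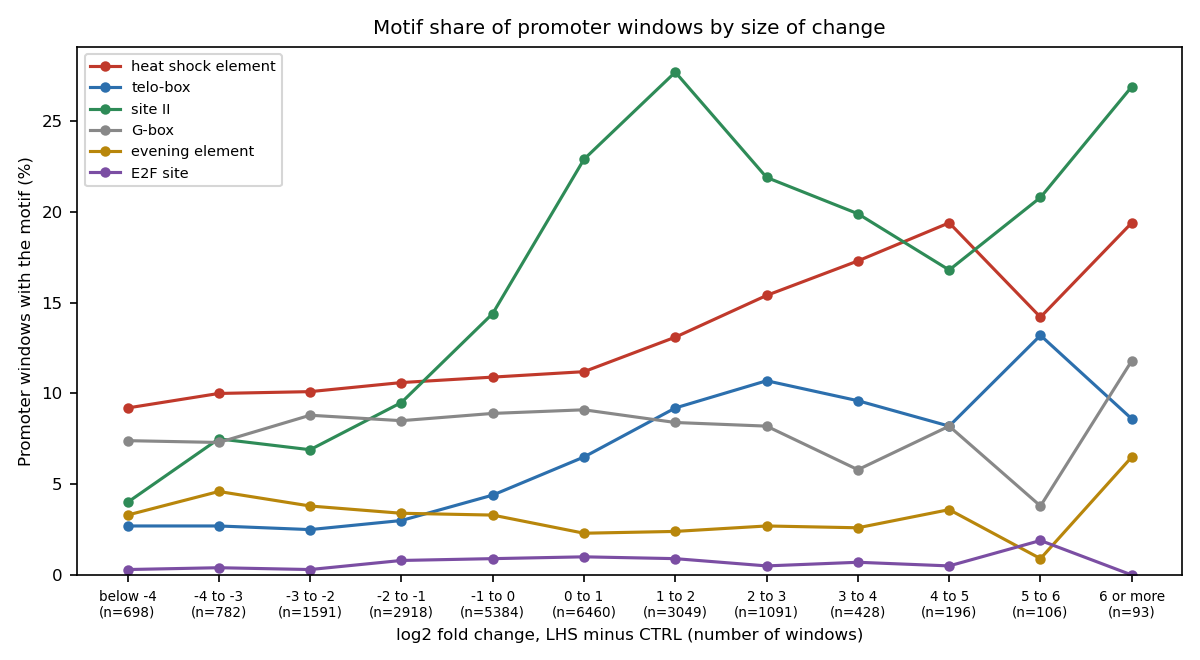
Percentage of promoter windows (250 bases before to 50 after the gene start) that hold each of 6 motifs on either strand, for tested genes binned by log2 fold change, with the number of windows under each bin. Site II is at 27.7% in the bin from 1 to 2 and 16.8% in the bin from 4 to 5, and the heat shock element is at 9.2% in the lowest bin, 19.4% in the bin from 4 to 5 and 14.2% in the next. The 2 highest bins hold 106 and 93 windows, and their points are less precise. Heat shock protein genes are included.

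The end of heat was also set against the recovering seedlings, which share the LHS libraries with the comparison above. Recovery levels are means ± SD of 2 libraries, and differences are LHS minus recovery on the log2 scale, tested in the same limma fit. CUL2 was at 137 ± 28.5 scaled reads after 12 h of recovery, below LHS by 5.80, adjusted p = 2.13e-05, and at 16.9 ± 13.8 after 84 h (8.99, adjusted p = 1.87e-06). HSFA2 was at 53.5 ± 12.9 at 12 h (5.90, adjusted p = 1.49e-06). APX2, still at 7792 ± 1256 at 12 h, was not called against LHS (0.72, adjusted p = 0.141), and it was at 41.2 ± 21.97 at 84 h (8.35, adjusted p = 9.51e-07). ABCF2 was higher at 12 h of recovery than at the end of heat, at 1830 ± 184 (−1.82, adjusted p = 0.00394).

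Among the genes with no or few reads in LHS, some were called higher at 12 h of recovery than in LHS and others were not called. EXPA17 was at 224 ± 43.7 at 12 h (−7.80, adjusted p = 2e-05). BHLH38 was at 16.6 ± 0.433 at 12 h (−4.13, adjusted p = 0.000908) and at 358 ± 281 at 84 h (−8.23, adjusted p = 1.45e-05). SLAH1 was at 2.7 ± 2.74 at 12 h and was not called against LHS (−1.66, adjusted p = 0.0543), nor was CYP716A2, at 0.387 ± 0.547 (0.09, adjusted p = 0.904). Of the genes high in LHS, MCM5 was at 978 ± 30.5 at 12 h (4.36, adjusted p = 4.56e-07) and ANAC044 at 298 ± 45.4 (2.58, adjusted p = 0.000322), while SMR5, at 338 ± 29.9, was the other way (−1.14, adjusted p = 0.0349).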

How the data were processed

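Total RNA of wild-type seedlings was sequenced in 8 strand-specific libraries. Per the submitters' processing notes, the tools included CASAVA, STAR 2.5.3a, HTSeq 0.9.1 and DESeq2 1.14.1, with the TAIR10 genome. Whether counting used strand is not given in the sources used here, so antisense and overlapping genes are uncertain. The deposited table holds a normalised signal for each locus and library: every value is a whole multiple of its library's step (tolerance 1e-06), so the authors' values are read counts divided by 1 factor a library, and whole reads were recovered for all 8 libraries. There were 0 columns of other samples.

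Loci with a mean of at least 1 over the 8 libraries were tested on log2(value + 1) with limma 3.58.1 in R 4.3.3, using all 8 libraries to estimate the spread and Benjamini-Hochberg adjustment over 27638 loci. On simulated data of this size, 10%, 60%, 86% and 98% of 50 loci changed 1.5, 2, 4 and 8-fold were recovered. Of 33323 gene loci, 32835 matched the RefSeq TAIR10.1 annotation, which gave symbols, descriptions and promoter windows. The 43 gene lists (833 members, of which 827 were tested) and 14 families were chosen with earlier results of these data known. Named genes were the 10 largest called rises and falls among genes with a symbol. These also had a mean of at least 100 in the higher group and no overlap between groups. In each list, up to 3 risers and 3 fallers were named too. A further 53, among them members that were not called, were picked once their values had been seen. Folds against a group at 0 use a floor of 3 reads per library. Intervals are exact 95% binomial intervals on the higher group's share of a gene's reads, turned into ratios. These folds and intervals cover counting error only. Alternatives were a pseudocount of 0.1, no filter, TMM scaling, edgeR 4.0.16 and DESeq2 1.42.0 on recovered reads, only the CTRL and LHS libraries, a replicate block, a 2-fold minimum and each library left out.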

Additional observations from a re-analysis of the deposited data

How the results depend on the processing

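None of the named genes reversed its direction among called values under any alternative. Gene loci higher in LHS numbered 5374 with a 2-fold minimum, and element loci higher in LHS numbered 736 with DESeq2 on recovered reads, and the cause of the latter was not tested. Leaving out each library gave 7042 to 8334 gene loci higher, 6963 to 7930 lower, 941 to 1231 element loci higher and 333 to 417 lower. Of 266 genes that the naming rule or the text picks, 25 lost their call without LHS replicate 2, 23 without LHS replicate 1, 24 with only the CTRL and LHS libraries, 3 with edgeR and 4 with DESeq2. Calls that rose were 51.2% of all calls, 49.6% with TMM scaling and 49.0% with edgeR. Same-numbered libraries did not deviate together (correlations of −0.061 to 0.04 over the pairs of groups), so the replicate number pairs nothing that the data show, and with the replicate block the gene loci higher in LHS than CTRL numbered 8481, the gene loci lower in LHS than CTRL 8137, and element loci 1199 higher and 418 lower. With 2 libraries in a group, small changes can be missed. In simulated data 10% of 1.5-fold changes were recovered, with 50 of 24632 loci changed at each fold. Since 68.0% of gene loci were called here, the adjustment was less strict than in the simulation. The simulated rates therefore do not describe this comparison.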
